A study of Mus musculus with 4 samples.

Results

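The cells described here were cycling macrophages of brown adipose tissue (BAT) of mice, measured in its stromal vascular fraction (SVF) by single-cell RNA sequencing. They were chosen by measured values. A cell was taken as a macrophage if the unique molecular identifiers (UMIs, each counting 1 captured mRNA molecule) of Lyz2, Cd68, Ctss, Csf1r, C1qa, C1qb and C1qc reached 30 per 10000 UMIs, while the fibroblast genes Col1a1, Col1a2, Col3a1, Dcn and Gsn stayed under 30 and the endothelial genes Cdh5, Cldn5 and Gpihbp1 under 20. A macrophage was taken as cycling if it held at least 3 UMIs of Mki67, Top2a, Birc5, Cdk1, Ube2c, Hmmr, Tpx2 and Cenpf together. By this rule 1018 of 8185 macrophages were cycling, among 28887 cells that passed the quality limits, and the other 7167 macrophages are called non-cycling.

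The 4 libraries were from C57BL6/J wild-type mice aged 10 weeks (WT), from DB_DB mice of the same labelled strain aged 8 weeks (db/db 8w) and 16 weeks (db/db 16w), and from wild-type mice on a high-fat diet (HFD) labelled as 10 weeks old. The db/db mutation disrupts the leptin receptor throughout the body, so these mice model obesity without leptin signalling. By the study's methods the diet was begun at that same age, so how old these mice were at sampling is uncertain. Each library pooled the SVF of 3 mice, which were not told apart here. With 1 library per group no difference was tested, and every interval below is a 95% interval for counting error alone. Where 4 values follow each other, they stand for WT first, then db/db 8w, then db/db 16w and last HFD.

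The db/db 16w library stood apart. Xist, the RNA of the inactive X chromosome, was found in 48.3% of its cycling macrophages (246 cells) and in 0 of those of the other libraries. A UMI of the Y-linked Ddx3y, Eif2s3y, Kdm5d or Uty was found in 81.6%, 76.4%, 10.6% and 62.9% of cycling macrophages, whereas the study describes its mice as male. Values of the other libraries therefore stand beside each result of db/db 16w. Barcodes over the mitochondrial limit made up 28%, 35.6%, 1.04% and 68.5%. Between 7 and 25 quality-passing barcodes were shared by any pair of libraries, and 1 barcode was a cycling macrophage in both db/db 8w and HFD.

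Tissue macrophages can be renewed by monocytes that arrive from the blood or by division in place, and division of resident macrophages is known in obese adipose tissue. A dividing cell loads the MCM helicase on its DNA, copies the DNA in S phase, condenses its chromosomes in G2 and separates them in mitosis. Cyclins and the kinases they bind (CDKs) drive these steps, while the anaphase-promoting complex (APC/C) ends them by marking cyclins for destruction. Lipid-associated macrophages (LAMs) are the Trem2-bearing, lipid-loaded macrophages of obese fat, and perivascular-like macrophages (PVMs) are residents that bear Lyve1 and Cd163.

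The 8 genes of the rule contributed unequally. Mki67, which encodes the Ki-67 protein of the chromosome surface, was detected in 95.9%, 90.5%, 83.7% and 89.8% of cycling macrophages. Birc5 (survivin, a subunit of the chromosomal passenger complex) was detected in 26.5%, 37.3%, 85.3% and 69.0%. Mki67 was thus found in most cells of each library, and Birc5 in most cells of db/db 16w and HFD alone. Top2a, the topoisomerase that untangles sister DNA, was detected in 42.9%, 45.2%, 57.2% and 71.6%, Cdk1, the mitotic kinase, in 30.6%, 29.7%, 55.8% and 50.8%, and Ube2c, the ubiquitin donor of the APC/C, in 24.5%, 41.4%, 67.4% and 55.8%. Hmmr and Tpx2, which act at the spindle, and the kinetochore gene Cenpf were each seen in 18.4% to 24.5% of the cells of WT and in 45.2% to 59.9% of those of db/db 16w and HFD. A cycling macrophage held a median of 2, 2, 5 and 5 of the 8 genes.

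Part of the class rested on Mki67 alone. In WT 21 of the 49 cycling macrophages (42.9%) had no UMI of the other 7 genes, compared with 62 of 263 (23.6%) in db/db 8w, 3 of 509 (0.589%) in db/db 16w and 15 of 197 (7.61%) in HFD. Cells with 3 or more of the 8 genes made up 34.7%, 46.0%, 87.6% and 76.7% of the class. At the threshold itself, 20, 89, 52 and 31 cells held exactly 3 UMIs and were taken, while 29, 173, 112 and 86 held 2 UMIs and were not. Counts of 10 to 19 UMIs and of 20 or more were held by 5 and 8 in WT, 27 and 56 in db/db 8w, 127 and 183 in db/db 16w and 25 and 87 in HFD. The highest count in a cell was 69, 119, 146 and 108. The median was 4, 5, 14 and 14 UMIs. The cycling macrophages of WT and db/db 8w thus lay closer to the threshold than those of db/db 16w and HFD. Those with 3 to 4 UMIs numbered 28, 125, 89 and 49. Their 36 S phase genes summed to 482, 540, 1417 and 1028 per 1000000 UMIs, against 431, 461, 499 and 500 in macrophages with 0 UMIs. For 38 genes of G2 and mitosis it was 842, 707, 1261 and 727 against 621.5, 662, 583 and 490. In WT and db/db 8w the S phase sums were thus near those of macrophages with 0 UMIs.

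The cells carried macrophage genes that the rule did not use, beside UMIs of other cell types. Of these genes, Tyrobp, Fcer1g and Laptm5 of myeloid signalling and lysosomes were detected in 94.7% to 100% of cycling macrophages in each library, and Adgre1 (F4/80) in 75.4% to 89.8%. The receptor genes Fcgr1 and Mertk were detected in 18.2% to 37.1% and in 17.3% to 38.8%. The T cell genes Cd3d, Cd3e, Cd3g and Trac were each at 0.931 CPM (UMIs scaled to a total of 1000000) or less. Of 14 lymphoid markers, 9, 5, 7 and 1 were at 0, and the list summed to 256, 183, 96.0 and 371 CPM in cycling and 268, 185, 142 and 431 CPM in non-cycling macrophages. At least 2 UMIs of these markers were held by 51.0%, 42.2%, 24.0% and 60.4% of cycling and 42.0%, 23.5%, 17.3% and 47.8% of non-cycling macrophages, which were shallower. Most of the sum was Ighm (218, 42.3, 19.5 and 58.6 CPM in cycling cells) and Il7r (13.7, 132, 62.7 and 288 CPM). The 6 neutrophil markers summed to 96.0, 75.9, 51.8 and 19.6 CPM in cycling and 171, 412, 81.7 and 23.5 CPM in non-cycling macrophages. The 9 fibroblast markers outside the rule summed to 22.2 to 271 CPM in cycling macrophages, against at least 10022 CPM in the cells outside the gate. At least 2 UMIs of them were held by 75.5%, 46.8%, 3.14% and 54.3% of cycling and 63.9%, 31.2%, 2.44% and 49.8% of non-cycling macrophages. The haemoglobin genes Hba-a1 and Hbb-bs with 3 mast cell genes summed to 5.14, 29.3, 2381 and 3.72 CPM in cycling and 473, 448, 2751 and 19.03 CPM in non-cycling macrophages. These RNAs were lowest in the cycling macrophages of WT and HFD, and their part in the results below was not tested.

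Cycling macrophages made up the smallest share in WT and the largest in db/db 16w. By number they were 49 of 1124 macrophages, 263 of 2845, 509 of 2350 and 197 of 1866, which gave shares of 4.36% (3.24 to 5.72), 9.24% (8.20 to 10.4), 21.7% (20.01 to 23.4) and 10.6% (9.20 to 12.0). The intervals of the 3 libraries of obese mice lay above that of WT. Db/db 8w exceeded WT by 4.88 points (3.17 to 6.47). Db/db 16w exceeded it by 17.3 points (15.2 to 19.4), and HFD by 6.198 points (4.27 to 8.05). Db/db 16w exceeded db/db 8w by 12.4 points (10.4 to 14.4), whereas HFD exceeded db/db 8w by 1.31 points (-0.450 to 3.12), an interval that held 0. Of all cells of the SVF, cycling macrophages were 0.824%, 2.26%, 8.73% and 3.61%.

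**Figure D1:**
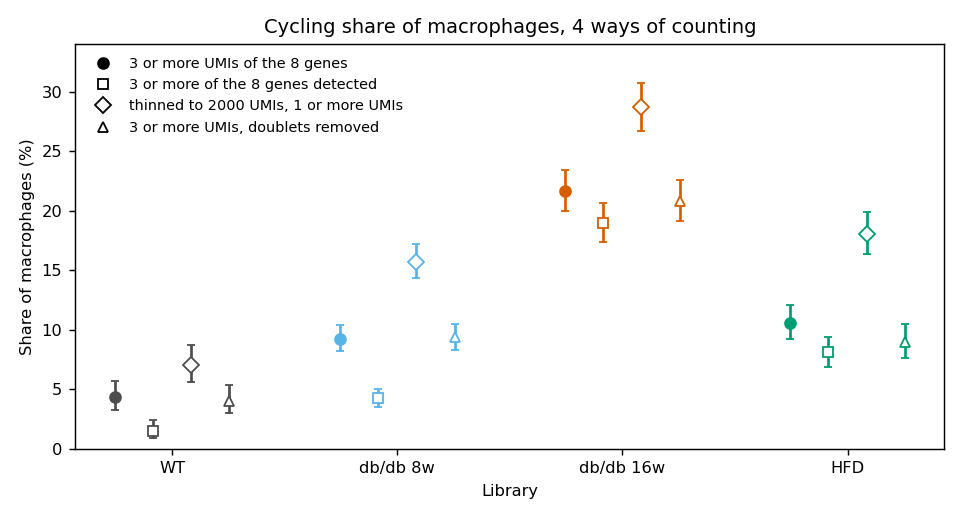
Share of macrophages counted as cycling (y axis, %) in each library (x axis), by the rule, with 3 or more of the 8 genes, after thinning to 2000 UMIs with 1 or more UMIs of the 8 genes, and after removal of predicted doublets. Bars are exact 95% binomial intervals for counting error in 1 library; WT was lowest (4.36% by the rule) and db/db 16w highest (21.7%) in each of the 4 ways.

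The rule counts raw UMIs, so a deeply sequenced cell reaches 3 UMIs more easily. The median depth was 11458, 10693, 9552 and 9121 UMIs in cycling and 5883, 5058, 4331 and 5471 UMIs in non-cycling macrophages. When each cell was thinned to 2000 UMIs and 1 or more UMIs of the 8 genes were asked for, the shares were 7.03%, 15.7%, 28.7% and 18.1%. Thinning left out 0, 6, 17 and 0 cycling and 43, 346, 345 and 23 non-cycling macrophages as too shallow. With 3 or more of the 8 genes asked for, the shares were 1.51% (0.883 to 2.41), 4.25% (3.54 to 5.06), 18.98% (17.4 to 20.6) and 8.09% (6.89 to 9.42), and the interval of HFD then lay above that of db/db 8w. WT stayed lowest and db/db 16w highest in both.

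Cells of other gates that reached 3 UMIs and predicted doublets were counted beside the share. Free RNA of the 8 genes was not measured, and cells of those gates may themselves divide. In cells of the fibroblast gate, 3 UMIs were reached by 1.15%, 1.04%, 3.29% and 2.49% of cells, at median depths of 6724, 3604, 2710 and 5005 UMIs against 6032, 5373, 5176 and 5736 in macrophages. In the endothelial gate they were reached by 0.143% of 1395 cells in db/db 16w at a median of 995 UMIs and by 6.38% of 1269 cells in HFD at 4496 UMIs. The share in macrophages was above that of both gates in each library where the gate held over 1000 cells. Predicted doublets, in which a barcode holds more than 1 cell, were 8.16%, 2.66%, 9.04% and 25.9% of cycling and 0.837%, 3.99%, 4.24% and 10.96% of non-cycling macrophages. Without them the shares were 4.05%, 9.36%, 20.8% and 8.95%, with HFD below db/db 8w. The number of predicted doublets was set by an assumed rate that rose with all barcodes of a library. In HFD 68.5% of those barcodes were over the mitochondrial limit.

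In db/db 16w the share was measured apart in cells with Xist and with Y-linked UMIs, both called in counts thinned to 2000 UMIs. A cell that lost these UMIs by thinning fell among those with neither. Of the macrophages of at least 2000 UMIs, 451 then held Xist and no Y-linked UMI, and 23.7% (19.9 to 27.9) of them were cycling. Of the 53 with a Y-linked UMI and no Xist UMI it was 30.2% (18.3 to 44.3), and of the 1483 with neither 24.9% (22.7 to 27.2). The cycling cells numbered 107, 16 and 369, whereas 246 cycling macrophages held Xist in full counts. The 3 intervals overlapped, and each lay above the interval of WT, of db/db 8w and of HFD. The intervals of those libraries are of all their macrophages, including cells under 2000 UMIs, so the sets of cells differ. Thinned to 2000 UMIs with 1 or more UMIs of the 8 genes asked for, the shares were 29.1%, 28.3% (16.8 to 42.4) and 28.6%, and the interval of the cells with a Y-linked UMI then included the thinned share of HFD.

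Cycling cells were found across the range of LAM gene levels. Each macrophage was thinned to 2000 UMIs, and the UMIs of 18 LAM genes and of 18 PVM genes were summed per cell as a range and not as a cell type. With 60 or more LAM UMIs, the shares that were cycling in the 3 libraries of obese mice were 16.4% (13.3 to 19.9), 28.2% (25.5 to 30.9) and 14.1% (11.8 to 16.6). With fewer than 20, they were 4.92% (3.34 to 6.95), 8.68% (6.93 to 10.7), 20.8% (15.1 to 27.4) and 12.7% (9.11 to 17.1) in the 4 libraries. The intervals of high and low level stayed apart in db/db 8w and overlapped in db/db 16w and HFD. In WT 12 macrophages had 60 or more LAM UMIs and 0 of them were cycling, which, by the exact binomial interval, allows up to 26.5%. Between these levels, at 20 to 59 LAM UMIs, the shares were 4.14% (2.51 to 6.39), 8.79% (7.16 to 10.6), 20.5% (17.6 to 23.7) and 5.89% (4.28 to 7.88), and the intervals of WT and HFD overlapped. The intervals at 60 or more lay above those at 20 to 59 in each library of obese mice.

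The macrophages richest in LAM genes were also the deepest. Median depths at 60 or more LAM UMIs were 11130, 8905 and 8134 UMIs in the 3 libraries of obese mice, against 5052, 3325 and 4057 at fewer than 20. With 1 or more UMIs of the 8 genes asked for in the thinned cells, the shares in the 3 libraries of obese mice were 17.1%, 29.8% and 16.1% at 60 or more LAM UMIs, 16.0%, 28.1% and 13.6% at 20 to 59 and 15.6%, 24.6% and 22.0% at fewer than 20. High minus low level was 1.55 (-2.50 to 5.78), 5.24 (-2.17 to 11.9) and -5.90 (-11.6 to -0.569) points, so the high level was lower in HFD, while the intervals of both db/db libraries held 0. High minus middle level was 1.17 (-2.76 to 5.32), 1.74 (-2.65 to 6.06) and 2.49 (-1.17 to 6.09) points, and each of these intervals held 0, unlike the separation before thinning. In HFD the middle level minus the low level was -8.39 (-14.1 to -3.02) points.

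The share that was cycling was lower among macrophages rich in PVM genes. With 20 or more PVM UMIs the shares were 2.96% (1.89 to 4.41), 5.92% (4.70 to 7.36), 17.7% (14.5 to 21.2) and 4.43% (2.23 to 7.80), and with 5 to 19 they were 8.88% (5.43 to 13.5), 15.3% (12.5 to 18.4), 27.3% (24.1 to 30.6) and 11.2% (9.10 to 13.6). The intervals of these levels did not meet in any of the 4 libraries. With fewer than 5 PVM UMIs the shares were 7.69% (3.15 to 15.2), 14.6% (11.9 to 17.7), 27.4% (24.2 to 30.8) and 12.2% (9.95 to 14.7), and the interval of WT then overlapped that at 20 or more. With 1 or more UMIs in the thinned cells, the shares were 5.67%, 12.3%, 24.1% and 10.9% at 20 or more PVM UMIs, 9.81%, 22.5%, 31.4% and 17.6% at 5 to 19 and 10.99%, 17.6%, 29.5% and 16.1% at fewer than 5. The level of 20 or more minus that of 5 to 19 was -4.14 (-9.18 to -0.0566), -10.2 (-14.2 to -6.43), -7.31 (-12.3 to -2.20) and -6.68 (-11.2 to -1.46) points. Minus that of fewer than 5 it was -5.32 (-13.8 to 0.576), -5.30 (-9.01 to -1.77), -5.42 (-10.4 to -0.342) and -5.24 (-9.78 to -0.0436) points, and the interval of WT held 0.

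**Figure D2:**
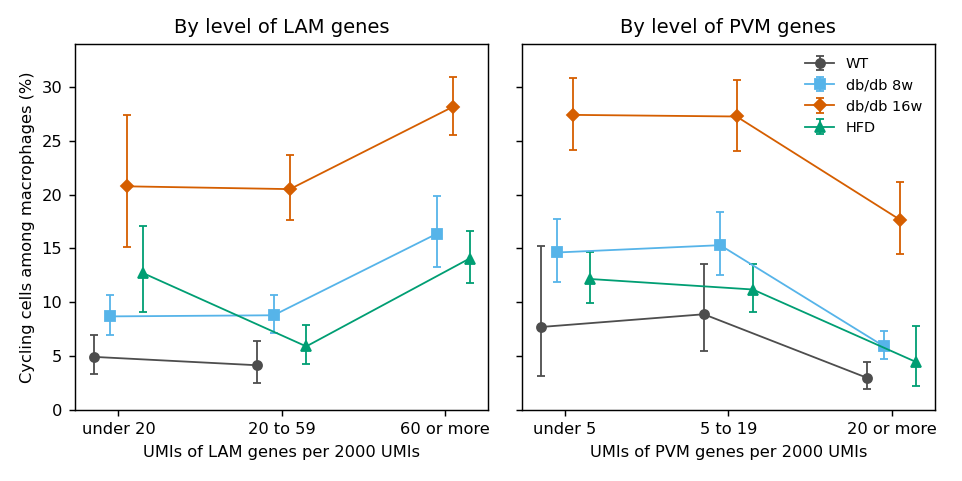
Share of macrophages that were cycling by the rule (y axis, %) at 3 levels of LAM genes and of PVM genes, each in UMIs per 2000 UMIs of a thinned cell (x axis), for the 4 libraries (lines join the points of a library, and WT has no point at 60 or more LAM UMIs, where it held 12 macrophages). Bars are exact 95% binomial intervals for counting error, and at 20 or more PVM UMIs the shares were 2.96%, 5.92%, 17.7% and 4.43%, below those at 5 to 19.

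Per cell, the PVM median was lower in cycling macrophages of each library. The median cycling macrophage held 17, 10, 6 and 5 PVM UMIs per 2000, against 32, 23, 8 and 6 in non-cycling macrophages. For LAM genes the medians were 15, 33, 73 and 69 in cycling and 18, 24, 63 and 52 in non-cycling macrophages. The range from the 25th to the 75th percentile overlapped between the classes for both lists in each library.

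**Figure D3:**
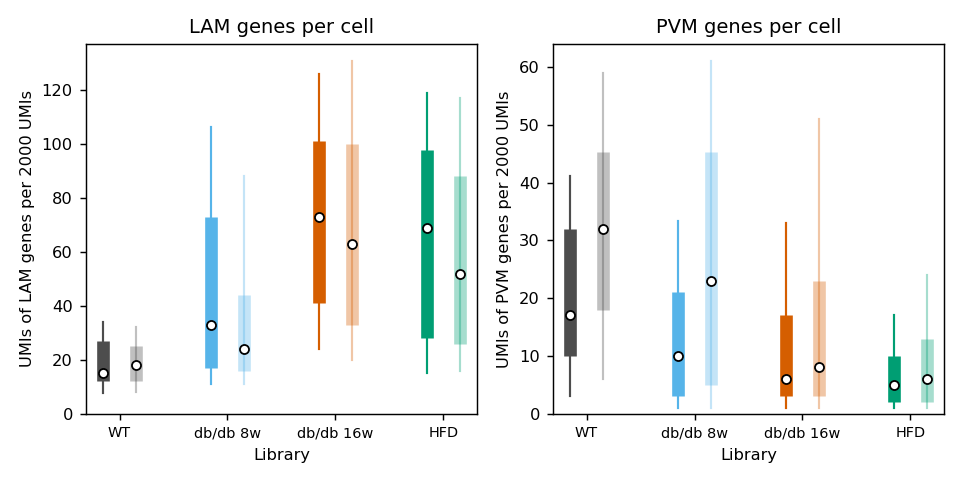
UMIs of LAM genes and of PVM genes per 2000 UMIs of a cell (y axes) in cycling and non-cycling macrophages of each library (x axis). Circles are medians, thick bars run from the 25th to the 75th percentile and thin lines from the 10th to the 90th; the PVM median was lower in cycling cells of each library (17 against 32 in WT).

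Among all genes, few differed between cycling and non-cycling macrophages. A gene was called higher or lower if the log2 ratio of its levels, with 10 CPM added, was at least 1 or at most -1, among genes at 20 CPM or more in either class. Of 5773, 5634, 5291 and 6031 genes, 2.25%, 1.81%, 4.1% and 3.47% were higher and 1.02%, 0.87%, 1.08% and 0.0995% lower in cycling macrophages. The rule used this contrast, so these shares and the counts of cell cycle genes below are a description. Of 4288 genes tested in each library, 63 (1.47%) were higher in all 4 and 0 (0%) lower in all 4. Without db/db 16w the counts were 63 and 0 of 4853. Without HFD 8 genes were lower in the other 3 libraries, among them Jun, Cd163, Lyve1, Cd209d, Ccl8, Hspa1b and Vsig4, without WT 1 gene was, Retnla, and without db/db 8w 0.

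Genes of mitosis led the ranking. Nusap1, which bundles spindle microtubules, was at 78.9, 67.1, 211 and 134 CPM in cycling and at 0.135, 1.25, 2.04 and 2.17 CPM in non-cycling macrophages. Prc1, which crosslinks the central spindle, was at 60.02, 98.9, 139 and 198 CPM against 4.26 CPM or less. Ccnb2, a B-type cyclin that activates Cdk1, was at 89.2, 59.3, 148 and 99.6 CPM against 0.270, 1.32, 10.97 and 3.72 CPM. For these 3 genes the lowest cycling level of any library lay above the highest non-cycling level. The other 12 of the 15 genes with the highest smallest ratio were Hist1h2ae, Stmn1, Pclaf, Cenpe, Cdca3, Racgap1, Hist1h1b, Smc2, Cdca8, Ccna2, Kif23 and Cks1b, and the ratios of the 15 lay between 1.83 and 4.23.

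**Figure D4:**
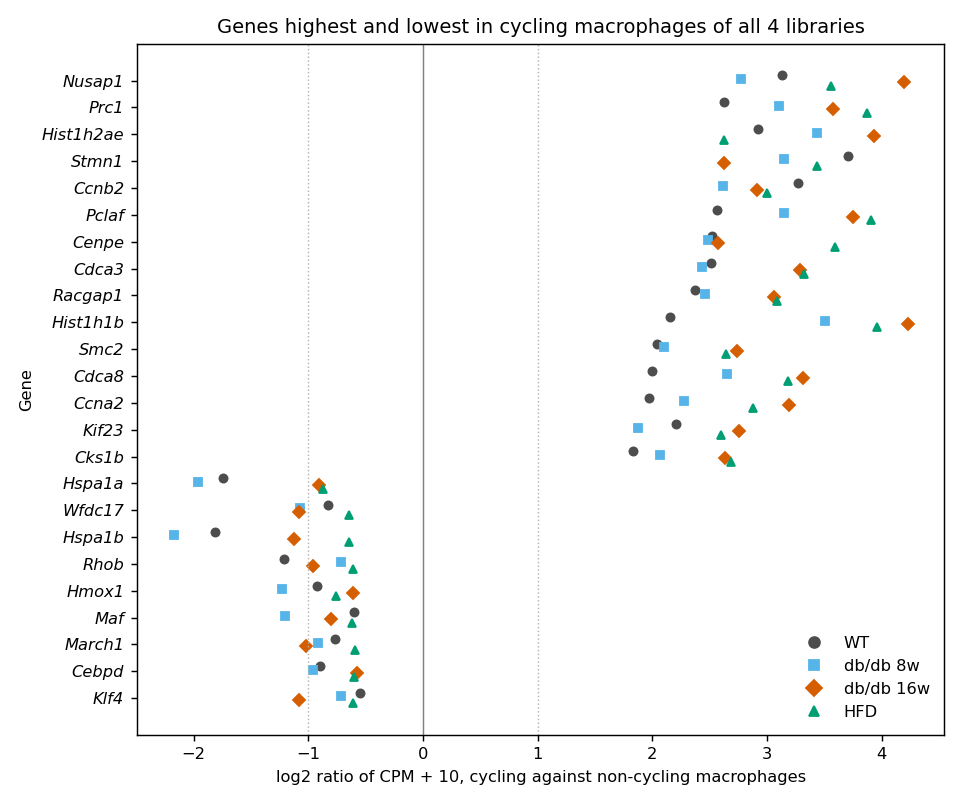
The 15 genes highest and 9 of the 10 genes lowest in cycling against non-cycling macrophages by the ratio in the library where it was nearest to 0, with 1 point per library and the log2 ratio of CPM plus 10 on the x axis. Dotted lines mark -1 and 1; the upper 15 genes lay between 1.83 and 4.23 and the lower 9 between -2.18 and -0.55.

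The mitotic machinery was higher as a group. Of 20 kinetochore genes, 7 of 7, 11 of 11, 18 of 18 and 18 of 18 that reached 20 CPM were higher, among them the motor Cenpe with log2 ratios of 2.52, 2.49, 2.57 and 3.59 and Ndc80, which holds microtubules, with 2.02, 1.79, 2.44 and 2.63. Of 20 spindle genes, 9 of 10, 10 of 11, 16 of 16 and 17 of 17 were higher, and of 12 genes of the passenger complex and cytokinesis 5 of 7, 6 of 7, 9 of 10 and 11 of 11. Racgap1, which positions the cleavage furrow, had ratios of 2.38, 2.46, 3.06 and 3.09. Of 10 genes of condensin and cohesion, 2 of 4, 5 of 6, 7 of 9 and 8 of 9 were higher, with Smc2 at 2.04, 2.10, 2.73 and 2.65, whereas Top2b, the topoisomerase that non-dividing cells also use, had 0.48, 0.091, -0.21 and -0.24. Of 10 genes around the APC/C, 2 of 6, 3 of 7, 5 of 8 and 5 of 9 were higher, with its activator Cdc20 at 2.37, 1.79, 2.25 and 2.23.

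Genes of DNA replication had smaller ratios. The 36 S phase genes had summed log2 ratios of 0.98, 1.17, 1.75 and 1.83, and the 38 G2/M genes of 1.84, 1.77, 2.65 and 2.75. Of 18 licensing genes, 3 of 5, 5 of 11, 6 of 12 and 11 of 13 were higher. The helicase subunit Mcm5 was at 29.1, 36.3, 73.1 and 48.9 CPM in cycling and at 5.67, 5.77, 20.4 and 9.70 CPM in non-cycling macrophages. Of 27 genes of DNA synthesis, 4 of 9, 6 of 13, 15 of 22 and 19 of 25 were higher. Tk1, which makes thymidine monophosphate, was at 24.0, 53.2, 144 and 121 CPM against 0.540, 2.07, 15.3 and 6.80 CPM. Rrm2, the regulated subunit of ribonucleotide reductase, had log2 ratios of 1.49, 1.32, 2.82 and 2.14, and the sliding clamp Pcna of 0.65, 0.53, 1.31 and 1.17. The ratios of Tk1, Rrm2 and Pcna were smaller in WT and db/db 8w than in db/db 16w and HFD.

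Cyclin and kinase genes were more often higher than their inhibitors. Of 23 cyclin and kinase genes, 8 of 13, 7 of 15, 13 of 18 and 11 of 17 were higher. Ccna2, the cyclin of S phase and G2, was at 30.9, 40.2, 99.4 and 71.7 CPM against 1.94 CPM or less. Among the D-type cyclins, which pass growth signals to the cycle, Ccnd1 was at 17.1, 65.6, 191 and 99.6 CPM in cycling and 9.99, 35.8, 93.6 and 86.4 CPM in non-cycling macrophages, and the counting interval of the ratio held 0 in WT (-0.34 to 1.74) and HFD (-0.015 to 0.42). Ccnd2 went either way, with log2 ratios of 1.19, 0.013, -0.86 and -0.32, and Ccnd3 had -0.54, -0.28, -0.38 and -0.51. Of 14 inhibitors and antiproliferative genes, 1 of 11, 0 of 10, 1 of 9 and 2 of 11 were higher. Of the same genes 0 of 11, 0 of 10, 1 of 9 and 0 of 11 were lower. Over all genes 2.25%, 1.81%, 4.1% and 3.47% were higher and 1.02%, 0.87%, 1.08% and 0.0995% lower. With so few inhibitor genes, their counts were not told apart from these shares. Cdkn2c (p18) had ratios of 1.70, 0.70, 0.79 and 1.19 and Cdkn2d (p19) of 0.35, 0.74, 1.39 and 1.44, while Cdkn1a (p21) had 0.71, 0.11, -0.47 and -0.14 and Btg2 -0.26, -0.67, -1.28 and -0.66. Of 14 transcription factors of the cycle, 1 of 5, 0 of 5, 3 of 8 and 3 of 7 were higher. Foxm1, which drives mitotic genes, had 1.02, 1.41, 1.95 and 1.77, and E2f1, which drives S phase genes, 0.23, 0.48, 0.78 and 0.59. Myc, a driver of growth, was at 8.40 to 17.5 CPM in cycling and 7.97 to 18.6 CPM in non-cycling macrophages.

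Chromatin proteins and tubulins were higher together. The 19 genes of the list summed to 5501, 7081, 14556 and 9699 CPM in cycling and 3130, 3740, 5380 and 3526 CPM in non-cycling macrophages, and 8 of 18, 8 of 18, 16 of 19 and 15 of 19 were higher. The histone variant H2afz was at 525, 1094, 2741 and 1908 CPM against 277, 474, 897 and 672 CPM, and Stmn1, which destabilises microtubules, at 322, 476, 1196 and 868 CPM against 15.4, 44.9, 186 and 71.3 CPM. Outside the cell cycle lists, Pclaf (the PCNA-associated factor), Tmpo and Nrm of the nuclear envelope, Knstrn, Lockd, Ccdc34 and Ezh2, a histone H3 methyltransferase, had ratios of at least 1.03 in each library. Hist1h2ap, a core histone gene, was at 172, 316, 2585 and 48.0 CPM in cycling macrophages. Replication histone mRNAs mostly lack the poly(A) tail that the method captures and come from near-identical genes, so their levels are uncertain.

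The start sites of these genes are shown because G2/M and S phase genes are known to be controlled through different promoter elements. The counts do not measure promoters. Sequences are from RefSeq on GRCm38.p6, from 250 bases before to 50 bases after the start site, and letters were searched on both strands. Some genes had more than 1 start site. TTTGAA (the letters of the CHR element) was in 67.6% of 37 promoters of G2/M genes, 16.1% of 31 promoters of S phase genes and 17.9% of all 32851 promoters. CCAAT (the NF-Y box) was in 78.4%, 71.0% and 37.4%, and an E2F string (TTTCCCGC, TTTGGCGC, TTTGCCGC or TTTCGCGC) in 0%, 38.7% and 2.27%. By symbol, 34 of 38 G2/M genes and 27 of 36 S phase genes were matched. Ccnb2 and Cdca3, a trigger of mitotic entry, are printed for G2/M and Mcm5 for S phase, as they stand high in their lists and hold the letters, which are in capitals.
Ccnb2, chr9:70421505-70421804, minus strand: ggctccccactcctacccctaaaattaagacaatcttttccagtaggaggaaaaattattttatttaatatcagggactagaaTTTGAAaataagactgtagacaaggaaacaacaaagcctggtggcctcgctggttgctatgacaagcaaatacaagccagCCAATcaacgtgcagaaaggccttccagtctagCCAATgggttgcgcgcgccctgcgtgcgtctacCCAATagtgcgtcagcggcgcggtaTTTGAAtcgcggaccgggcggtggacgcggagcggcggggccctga
Cdca3, chr6:124829926-124830225, plus strand: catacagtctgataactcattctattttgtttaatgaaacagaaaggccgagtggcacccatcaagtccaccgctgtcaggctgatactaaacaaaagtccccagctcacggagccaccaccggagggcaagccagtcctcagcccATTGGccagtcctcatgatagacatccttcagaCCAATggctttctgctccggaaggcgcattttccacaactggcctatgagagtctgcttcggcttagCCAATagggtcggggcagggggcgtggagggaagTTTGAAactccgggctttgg
Mcm5, chr8:75109259-75109558, plus strand: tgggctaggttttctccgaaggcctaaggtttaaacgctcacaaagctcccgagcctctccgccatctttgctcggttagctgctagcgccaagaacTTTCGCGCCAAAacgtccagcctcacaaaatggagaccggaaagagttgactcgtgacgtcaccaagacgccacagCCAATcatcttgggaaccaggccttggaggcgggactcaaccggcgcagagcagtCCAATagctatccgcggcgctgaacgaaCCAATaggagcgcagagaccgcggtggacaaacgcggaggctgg
Ccnb2 held 3 CCAAT and 2 TTTGAA, Cdca3 held 3 and 1, and Mcm5 held 3 CCAAT and 2 overlapping E2F strings. Nusap1, the gene of the highest smallest ratio, held none of these letters in its window, which says nothing about the factors.

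The balance of S phase and G2/M genes differed between libraries, in cycling and in non-cycling macrophages. In cycling macrophages the 36 S phase genes summed to 861, 1035, 2103 and 1892 CPM and the 38 G2/M genes to 2277, 2275, 3844 and 3340 CPM. The log2 ratio of S to G2/M UMIs was -1.40 (-1.55 to -1.25), -1.14 (-1.19 to -1.08), -0.87 (-0.90 to -0.84) and -0.82 (-0.88 to -0.76). The intervals of db/db 16w and HFD overlapped, and those of WT and db/db 8w lay below them and apart from each other. In non-cycling macrophages the S phase genes summed to 435.7, 459.5, 627.1 and 530.7 CPM and the G2/M genes to 634.5, 668.4, 613.7 and 495.7 CPM. There too S phase genes stood lower against G2/M genes in WT and db/db 8w than in db/db 16w and HFD. The part of this in the ratios of cycling macrophages was not tested. S phase UMIs outnumbered G2/M UMIs in 14.3%, 19.4%, 26.9% and 35.5% of cycling macrophages. The genes of the rule peak in G2 and mitosis, so a cell early in S phase could miss the rule. At least 5 UMIs of S phase genes were held by 59.2%, 64.3%, 78.6% and 79.2% of cycling macrophages, and by 19.7%, 16.3%, 14.8% and 20.4% of macrophages with 0 UMIs of the 8 genes, at median depths of 5471, 4540, 3816 and 5208 UMIs.

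LAM genes differed little between cycling and non-cycling macrophages. They summed to 9163, 29750, 43911 and 39924 CPM in cycling and 10474, 24507, 42354 and 37255 CPM in non-cycling macrophages, log2 ratios of -0.19 (-0.23 to -0.15), 0.28 (0.27 to 0.29), 0.052 (0.045 to 0.059) and 0.10 (0.089 to 0.11). Of 14, 18, 18 and 18 genes tested, 0 were higher and 0 lower by a log2 ratio of 1 in any library. Trem2, the lipid receptor that defines LAMs, was at 73.7, 616, 1107 and 1137 CPM in cycling and at 121, 488, 1140 and 1064 CPM in non-cycling macrophages. At 2000 UMIs it was found in 12.2%, 49.4%, 76.8% and 71.6% of cycling and in 16.2%, 32.6%, 72.3% and 61.1% of non-cycling macrophages. Lgals3 (galectin-3) had log2 ratios of 0.43, 0.57, 0.19 and 0.39, while Itgax (CD11c), a marker of inflammatory fat macrophages, had -0.19, -0.35, -0.46 and -0.63. In WT the LAM ratio was 0.33 once cells with at least 2 UMIs of other immune markers were removed, which left 14, 121, 344 and 70 cycling macrophages, so the WT value of that setting rests on 14 of 49 cells. In db/db 16w split by Xist and Y-linked UMIs in thinned counts, the LAM ratio was -0.16 (-0.18 to -0.14) with Xist, on 107 cycling cells. It was 0.28 (0.24 to 0.32) with a Y-linked UMI, on 16 cycling cells, and 0.034 (0.027 to 0.042) with neither, on 369. Its direction thus differed between the cells with Xist and those with a Y-linked UMI. These intervals leave out the spread between cells.

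PVM genes were lower in sum in the cycling macrophages of each library. They summed to 11017, 5662, 4459 and 3229 CPM against 16281, 11127, 6953 and 4284 CPM, log2 ratios of -0.56 (-0.60 to -0.53), -0.97 (-0.996 to -0.95), -0.64 (-0.66 to -0.62) and -0.41 (-0.44 to -0.37). Of the genes that reached 20 CPM, 8 of 18, 10 of 17, 7 of 14 and 0 of 10 were lower, against 1.02%, 0.87%, 1.08% and 0.0995% of all genes, and 0 were higher. Lyve1, the hyaluronan receptor, was at 376, 232, 49.1 and 1.40 CPM against 942, 561, 114 and 8.16 CPM, and Cd163, the haemoglobin scavenger receptor, at 271, 185, 38.2 and 25.6 CPM against 617, 463, 103 and 40.2 CPM. Selenop, which carries selenium, had log2 ratios of -0.43, -1.01, -1.86 and -0.67, and Gas6, a ligand in the clearance of dead cells, of -0.62, -1.12, -1.09 and -0.47. Not each member was lower, as Mrc1, the mannose receptor, had 0.17, -0.55, -0.36 and -0.27 and the chemokine Pf4 -0.22, -0.63, 0.029 and 0.14. In db/db 16w split by Xist and Y-linked UMIs in thinned counts, the PVM ratio was -0.21 (-0.25 to -0.17) with Xist, on 107 cycling cells. It was -1.71 (-1.85 to -1.57) with a Y-linked UMI, on 16 cycling cells, and -0.66 (-0.69 to -0.64) with neither, on 369.

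The transcription factors Maf, Klf2 and Klf4 and the receptor Csf1r were at lower levels in the cycling macrophages of each library. Maf, known to restrain the self-renewal of macrophages, was at 753, 236, 124 and 102 CPM in cycling and 1146, 557, 224 and 161 CPM in non-cycling macrophages, with log2 ratios of -0.60, -1.20, -0.80 and -0.62, and passed a ratio of -1 in db/db 8w alone. Klf4 had ratios of -0.55, -0.72, -1.08 and -0.61 and Klf2 of -0.40, -0.40, -0.60 and -0.37. The 7 macrophage genes of the rule had a summed log2 ratio of -0.22, -0.35, -0.79 and -0.49, among them Csf1r, the receptor of the main macrophage growth factor, at 554, 336, 218 and 324 CPM against 707, 504, 385 and 473 CPM. Of 20 genes of growth signalling and self-renewal, 1 of 15, 1 of 15, 1 of 15 and 1 of 15 were higher and 0 of 15, 1 of 15, 2 of 15 and 0 of 15 lower, the higher one being Ezh2. The list was mixed in WT and db/db 8w, as 7, 5, 1 and 1 of the 15 ratios lay above 0. Csf1 and Il34, the ligands of Csf1r, were at 10.3 CPM or less in cycling macrophages. Ccl2, the chemokine that draws monocytes, was at 2224, 1361, 1058 and 216 CPM against 1429, 1216, 426 and 80.0 CPM, with log2 ratios of 0.64, 0.16, 1.29 and 1.32. At 2000 UMIs it was found in 57.1%, 44.4%, 33.1% and 19.8% of cycling and 44.0%, 44.1%, 18.6% and 11.4% of non-cycling macrophages.

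Heat-shock and early-response genes were lower in sum. The 9 genes summed to 12523, 6512, 2598 and 4109 CPM against 26888, 13019, 4907 and 5239 CPM, log2 ratios of -1.10, -0.999, -0.92 and -0.35. Of them 5 of 9, 5 of 9, 4 of 9 and 0 of 9 were lower by a ratio of 1, against 1.02%, 0.87%, 1.08% and 0.0995% of all genes. In db/db 16w split by Xist and Y-linked UMIs in thinned counts, the stress ratio was -0.68 (-0.74 to -0.62) with Xist, on 107 cycling cells. It was -1.77 (-1.95 to -1.60) with a Y-linked UMI, on 16 cycling cells, and -0.91 (-0.94 to -0.88) with neither, on 369. Hspa1a and Hspa1b, near-identical chaperone genes whose reads may be shared, had ratios of -1.74, -1.96, -0.91 and -0.87 and of -1.82, -2.18, -1.13 and -0.64. Hsp90aa1, another chaperone, was on both sides with -1.82, -1.21, 0.30 and 0.36. Other genes among the 10 with the lowest ratios were Hmox1 (haem breakdown), Wfdc17, Rhob, Cebpd and March1.

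**Figure D5:**
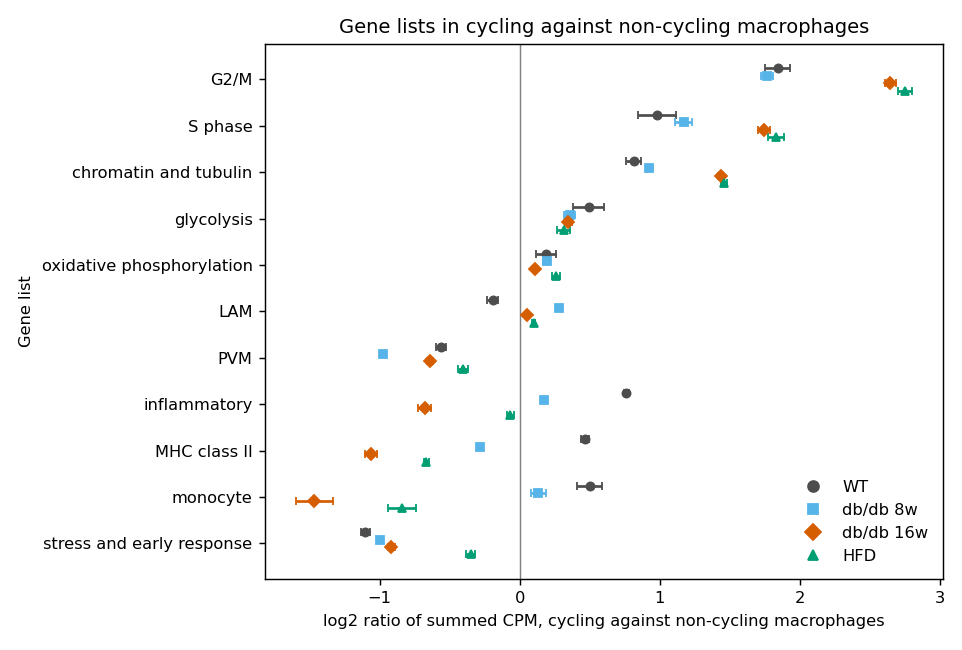
Log2 ratio of summed CPM (x axis) of 11 gene lists (y axis) in cycling against non-cycling macrophages, with 1 point per library and bars for 95% counting intervals. G2/M, S phase and glycolysis lists lay above 0 and PVM and stress lists below 0 in the 4 libraries, while inflammatory genes ran from 0.76 in WT to -0.68 in db/db 16w.

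Genes of energy supply had small positive ratios. The 11 glycolysis genes had summed log2 ratios of 0.49 (0.38 to 0.60), 0.36 (0.32 to 0.39), 0.35 (0.32 to 0.37) and 0.31 (0.27 to 0.36), and the 15 genes of oxidative phosphorylation of 0.19, 0.19, 0.11 and 0.26. Of 9 glycolysis and 15 oxidative genes that reached 20 CPM, 0 passed a ratio of 1 in any library.

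Immune activation lists differed between libraries. The 14 inflammatory genes had a summed log2 ratio of 0.76, 0.17, -0.68 and -0.066. Il1b, the inflammasome cytokine, was at 3923, 3153, 19.7 and 224 CPM in cycling and 1746, 2595, 68.6 and 232 CPM in non-cycling macrophages. The 8 genes of MHC class II antigen presentation had 0.47, -0.28, -1.06 and -0.67, and H2-Aa was at 4570, 1919, 239 and 2580 CPM against 3271, 2433, 486 and 3985 CPM. The 13 monocyte genes had 0.50, 0.13, -1.47 and -0.84. Plac8, expressed by fresh monocytes, was at 158, 6.65, 0.536 and 1.86 CPM against 178, 30.1, 11.4 and 72.3 CPM. The positive values of WT depended on which cells were counted. With 3 or more of the 8 genes asked for, WT had 0.041 for inflammatory, -0.063 for MHC class II and 0.14 for monocyte genes, and with cells of other immune markers removed, which left 14 of the 49, -0.22, -0.47 and -0.059. The negative values of db/db 16w and HFD for MHC class II and monocyte genes kept their sign under the 8 alternatives run.

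Between libraries, cycling macrophages differed in LAM genes. Non-cycling macrophages did as well, with LAM sums of 10474, 24507, 42354 and 37255 CPM. Among genes at 20 CPM or more in either group, 5.05% were higher and 5.72% lower in the cycling macrophages of db/db 8w than in those of WT, 18.1% and 22.9% in db/db 16w, and 11.5% and 9.88% in HFD, and the median log2 ratio over all genes was -0.018, -0.13 and 0.14. These comparisons share the WT library and its 49 cycling cells. Of the LAM genes, 15 of 18, 16 of 18 and 17 of 18 were higher, with median log2 ratios of 2.33, 3.02 and 2.58. Gpnmb, a lysosomal glycoprotein, was at 12, 921, 1466 and 1387 CPM in cycling macrophages, and Fabp5, which carries fatty acids, at 63.4, 1236, 2195 and 1541 CPM. Cd9, a tetraspanin of LAMs, was at 5.14, 263, 517 and 369 CPM, the WT level resting on 3 UMIs, and its log2 ratio without added CPM was 5.68 in db/db 8w (4.13 to 7.96). Mmp12, the macrophage elastase, was at 0, 419, 662 and 1052 CPM, with 0 UMIs in the cycling macrophages of WT. There 3 counts would be 5.14 CPM, and the non-cycling macrophages of WT held it at 44.4 CPM. The protease Ctsk, the fatty acid carrier Fabp4, the proton pump subunit Atp6v0d2 and F7 were the other 4 of the 8 highest genes.

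PVM genes were lower in sum in cycling macrophages of obese mice than in those of WT, with log2 ratios of -0.96, -1.30 and -1.77. Of the PVM genes, 8 of 16, 14 of 16 and 14 of 16 were lower in the 3 libraries, with median log2 ratios of -0.99, -2.50 and -2.87. Fcna (ficolin A) was at 610.4, 106, 49.1 and 7.45 CPM and Cd209f, a lectin with near relatives in its family, at 206, 16.6, 1.25 and 2.79 CPM. Of genes known to respond to interferon, Rsad2 (viperin) was at 792, 56.5, 3.22 and 14.4 CPM, Ly6e at 1019, 77.7, 32.7 and 80.1 CPM and Irf7 at 87.5, 5.14, 7.68 and 7.45 CPM. Each of these levels was highest in WT. Non-cycling macrophages were likewise highest in WT, with Rsad2 at 693.5, 94.1, 7.38 and 32.0 CPM and Ly6e at 1392, 253, 46.7 and 120 CPM. Irf7 was there at 90.7, 14.2, 11.65 and 14.7 CPM, Fcna at 1145, 385, 70.7 and 14.7 CPM and Cd209f at 627.5, 128, 11.8 and 9.425 CPM. Plac8, Cfb and Cd209g were the other 3 of the 8 lowest genes. The inflammatory genes had summed log2 ratios of -0.077, -5.27 and -2.63. Of them 6 of 14, 14 of 14 and 14 of 14 were lower, and of the MHC class II genes 3 of 8, 8 of 8 and 1 of 8. Over all genes 5.72%, 22.9% and 9.88% were lower, so the MHC class II count of HFD was near that share. In non-cycling macrophages the inflammatory genes summed to 21585, 30827, 1519 and 6194 CPM, so they too were lower in db/db 16w and HFD than in WT. There the MHC class II genes summed to 15267, 12228, 2418 and 19137 CPM. The heat-shock and early-response genes summed to 26888, 13019, 4907 and 5239 CPM in these cells. The heat-shock and early-response genes had summed log2 ratios of -0.94, -2.27 and -1.61, with 5 of 9, 9 of 9 and 6 of 9 lower, and their part in the other differences was not tested. Of cell cycle genes, 1 of 28, 8 of 33 and 10 of 32 G2/M genes and 2 of 18, 15 of 26 and 10 of 27 S phase genes were higher. Over all genes 5.05%, 18.1% and 11.5% were higher, and the G2/M counts of db/db 8w and db/db 16w were near that share. The share of cells that passed on Mki67 alone was 42.9% in WT and lower in the others, and its part in these counts was not tested.

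Gpnmb, Fabp5 and Cd9 were higher than in WT in non-cycling macrophages as well. On the log2 scale Fabp5 differed by 4.08, 4.91 and 4.40 in cycling and by 3.45, 4.79 and 4.05 in non-cycling macrophages. Cd9 differed by 4.17, 5.12 and 4.65 in cycling and by 3.27, 4.36 and 3.96 in non-cycling macrophages. Gpnmb differed from WT by 5.40, 6.07 and 5.99 on the log2 scale in cycling and by 4.82, 6.03 and 5.92 in non-cycling macrophages of the 3 libraries. By the difference of these ratios, the highest genes were Mmp12, Hist1h2bc, Hist1h4d, Hist1h1b and Hist1h1e and the lowest Areg, Vegfa, Id2, Ifih1 and Il1a. Hist1h1b, a linker histone made in S phase, differed from WT by 1.17, 2.04 and 0.60 in cycling and by -0.18, -0.025 and -1.20 in non-cycling macrophages. Areg, a growth factor of the EGF family, was at 262, 367, 0.715 and 14.9 CPM in cycling and 67.4, 380.1, 3.59 and 24.1 CPM in non-cycling macrophages. Vegfa, the angiogenic factor, was at 77.2, 31.1, 2.68 and 24.2 CPM against 23.2, 45.8, 14.2 and 39.2 CPM. Both were higher in cycling than in non-cycling macrophages in WT and not in the other 3 libraries, and that difference was not tested.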

How the data were processed

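The SVF of BAT was measured by droplet single-cell RNA sequencing in 4 libraries. The authors deposited filtered matrices of raw UMI counts per gene and cell, aligned to mm10 with Cell Ranger, given as version 7.1.0 in the submitters' processing notes and as 6.0.0 in the file headers. A cell was kept if its genes numbered more than 250 and less than 6000, its UMIs more than 500 and less than 30000, and mitochondrial UMIs stayed below 15%, which left 5944, 11648, 5833 and 5462 cells (WT first, then db/db 8w, then db/db 16w and last HFD). The 4 libraries held 51357400, 61828295, 28504069 and 57279299 UMIs, and the cycling macrophages 583187, 3307330, 5596091 and 2148225, which limits the precision of each level.

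The members and gene lists were chosen with earlier results of these data known. UMIs were summed per library and class and scaled to CPM. Ratios of genes had 10 CPM added, and ratios of lists are of summed UMIs with exact conditional binomial intervals. Shares have exact Clopper-Pearson intervals, and differences of shares combine both intervals by square-and-add. All intervals and floors cover counting error only. Named genes were the genes of the rule, members of the lists by role, the 15 highest and 10 lowest by the ratio nearest to 0 over the libraries (with the 10 highest in no cell cycle list), the 8 highest and 8 lowest in obese libraries against WT, and the 5 highest and 5 lowest by the difference of that ratio between classes. Cells were thinned without replacement with a fixed seed. Scrublet (scanpy 1.11.5) scored doublets. The highest-scoring cells were called doublets up to assumed shares of 6.65%, 14.6%, 5.21% and 13.95%, set by the number of barcodes per library. They were kept in the main values. Some named genes are not reported here. The rule for calling genes was tried on counts simulated at the depth of db/db 16w. That simulation held no spread between cells and did not cover WT, whose cycling macrophages held the fewest UMIs. Python 3.11.15, numpy 2.4.6, pandas 2.3.3, scipy 1.17.1 and matplotlib 3.10.9 were used. The alternatives tried are given in the closing section.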

Additional observations from a re-analysis of the deposited data

Results flagged for a closer look

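The following gene lists had ratios of cycling against non-cycling macrophages on opposite sides of 0 in a pair of libraries, and none of these differences was tested. LAM genes had a log2 ratio of 0.28 in db/db 8w and -0.19 in WT. Inflammatory genes had 0.76 in WT and -0.68 in db/db 16w. MHC class II genes had 0.47 in WT and -1.06 in db/db 16w, and monocyte genes 0.50 and -1.47. The WT values rest on 49 cells and changed sign or came near 0 in some of the alternatives given below.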

How the results depend on the processing

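Values stand for WT first, then db/db 8w, then db/db 16w and last HFD. The settings without Mki67 and with 3 of the 8 genes asked for, the alternatives for stress, inflammatory, MHC class II and monocyte genes, the libraries left out and the split by Xist and Y-linked genes were chosen after seeing the data. The share of cycling macrophages was lowest in WT and highest in db/db 16w in 14 of 14 alternatives, the intervals of the 3 obese libraries lay above WT in the same 14, and HFD was above db/db 8w in 11, with its interval clear in 6. The values were 6.94%, 15.3%, 26.4% and 15.2% with 2 UMIs, 1.87%, 4.85%, 17.9% and 7.93% with 5 UMIs asked for, 1.87%, 6.68%, 19.6% and 8.31% with 5 per 10000 UMIs. Others were 3.93%, 9.92%, 20.5% and 11.2% thinned to 1000 UMIs with 1 UMI, 7.03%, 15.7%, 28.7% and 18.1% thinned to 2000 UMIs with 1 UMI, 1.11%, 3.09%, 14.7% and 6.19% thinned to 2000 UMIs with 3 UMIs. Further values were 4.05%, 9.36%, 20.8% and 8.95% without predicted doublets, 3.88%, 8.72%, 21.6% and 7.53% at a mitochondrial limit of 25%, 5.03%, 10.1%, 21.7% and 15.1% at a limit of 10%. Others were 4.05%, 8.80%, 18.8% and 9.53% at a macrophage threshold of 60 per 10000 UMIs, 3.55%, 7.18%, 19.8% and 8.54% without cells of other immune markers, 0.824%, 2.26%, 8.73% and 3.61% of all cells. Further values were 1.69%, 4.67%, 19.7% and 8.47% without Mki67, 1.51%, 4.25%, 18.98% and 8.09% with 3 of the 8 genes asked for. For the log2 ratio of LAM genes, 8 of 32 values lay below 0 and 2 changed sign. The values were -0.18, 0.44, 0.12 and 0.19 against non-cycling cells with 0 UMIs alone, -0.26, 0.19, 0.037 and 0.044 with 5 UMIs asked for, -0.21, 0.28, 0.063 and 0.11 without predicted doublets. Others were -0.065, 0.40, 0.21 and 0.14 as the mean over cells, -0.078, 0.35, 0.10 and 0.16 thinned to 2000 UMIs, -0.13, 0.29, -0.001 and 0.016 as the median of the genes. Further values were 0.33, 0.28, 0.077 and 0.18 without cells of other immune markers, -0.020, 0.13, 0.032 and 0.040 with 3 of the 8 genes asked for. The PVM ratio was below 0 in 32 of 32 values. The values were -0.61, -1.15, -0.77 and -0.43 against non-cycling cells with 0 UMIs alone, -0.90, -1.36, -0.70 and -0.57 with 5 UMIs asked for, -0.58, -0.99, -0.69 and -0.43 without predicted doublets. Others were -0.49, -0.93, -0.65 and -0.37 as the mean over cells, -0.48, -0.91, -0.54 and -0.38 thinned to 2000 UMIs, -0.94, -1.12, -0.83 and -0.32 as the median of the genes. Further values were -0.46, -0.78, -0.64 and -0.31 without cells of other immune markers, -0.64, -1.48, -0.65 and -0.41 with 3 of the 8 genes asked for. The ratio of S to G2/M genes was below 0 in 16 of 16 values. The values were -1.61, -1.30, -0.94 and -0.94 with 5 UMIs asked for, -1.37, -1.16, -0.87 and -0.78 without predicted doublets, -1.57, -1.29, -1.14 and -1.04 as the mean over cells. Others were -1.86, -1.34, -0.91 and -0.97 with 3 of the 8 genes asked for. The stress ratio was below 0 in 32 of 32 values. Other signs that changed were the inflammatory ratio of WT (-0.22 without cells of other immune markers), the MHC class II ratio of WT (-0.47 without such cells and -0.063 with 3 genes asked for) and of db/db 8w (0.013 as the mean over cells), and the monocyte ratio of WT (-0.059 without such cells) and of db/db 8w (-0.31 as the median of the genes and -0.17 without such cells). Genes higher in each library numbered 63, and 93, 68, 63 and 66 with WT, db/db 8w, db/db 16w or HFD left out. The cause of these changes was not tested. No paired analysis was possible because each group is 1 library. With 1 library per group, age, diet, genotype, sex and library preparation cannot be told apart, and the 49 cycling cells of WT limit each comparison with it.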
